A study of Mus musculus with 11 samples.

Results

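The 9 genes described here encode the classical cadherins Cdh1 and Cdh2, the adhesion protein Epcam, the matrix protein Fn1 and the transcription factors Snai1, Snai2, Zeb1, Zeb2 and Twist1. They were taken by symbol from the platform annotation as genes known for the epithelial-mesenchymal transition (EMT). They are 9 of the 19935 genes measured, and each was read by 1 transcript cluster, the probe set that the array uses for a gene. The 11 Affymetrix whole-transcript arrays carried total RNA from mouse embryonic stem cells (ESCs) of 2 genotypes in 2 media. The control was the E14 line, labelled wild type, and the mutant cells were Bmpr1a-/-, lacking one of the type I receptors through which bone morphogenetic proteins (BMPs) signal. Control cells in ESC medium gave 3 arrays, mutant cells in ESC medium 2 arrays (numbered 2 and 3), and each genotype after 3 days in N2B27 gave 3 arrays. N2B27 is a defined medium free of serum that lets ESCs exit pluripotency. The labels name 3 mutant lines without saying which line is on which array, and all control arrays come from E14, so line and genotype cannot be told apart. Whether replicates are separate cultures is not said, so p-values reflect only how these arrays scatter, possibly for technical reasons.

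E-cadherin, the product of Cdh1, and N-cadherin, the product of Cdh2, join neighbouring cells by binding the same cadherin on the next cell, and both are anchored to actin through catenins. In a classical EMT, factors of the SNAI, ZEB and TWIST families repress Cdh1 and other epithelial genes, while Cdh2 and Fn1 rise; the exchange of the cadherins is called the cadherin switch. ESCs are themselves an epithelial-like cell type held together by E-cadherin, and N-cadherin is characteristic of the neural epithelium. BMP signals favour self-renewal of ESCs and restrain neural differentiation.

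The deposited values are on a log2 scale, and each gene is set against a baseline of its own that the labels do not describe. A value of 0 is therefore not an absence, levels of different genes cannot be set against each other, and only differences between arrays were read. Differences were tested with limma over all genes, and genes with a Benjamini-Hochberg adjusted p under 0.05 are called. Errors of differences are moderated standard errors (SE) and errors of group means are standard deviations (SD). Array medians lay between -0.025 and 0.036, no pair of arrays was identical, and mutant replicate 2 in N2B27 lay farthest from its group mean, with a root mean square deviation of 0.185 over all genes against 0.0774 to 0.155 for the other arrays.

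Bmpr1a itself read 0.37, 0.16 and 0.25 in control ESCs and -0.03 and 0.00 in mutant ESCs, a difference of -0.27 ± 0.10 (SE, adjusted p = 0.145). In N2B27 the values were 0.61, 0.68 and 0.76 in control cells and 0.15, -0.14 and -0.05 in mutant cells, a called difference of -0.70 ± 0.09 (SE, adjusted p = 0.00211). The mutant arrays lay below the control arrays in both media, though the ESC difference missed the threshold. No label says which part of the gene was deleted, and probes outside that part would check nothing. All 8 pluripotency markers, among them Zfp42 and Esrrb, fell in N2B27 in both genotypes, with a median difference of -2.09 in control and -1.64 in mutant cells. Of all genes, 13.3% were called lower with the medium in control cells and 10.3% in mutant cells. In the mutant comparison 5 of the 8 were called without mutant ESC replicate 2 or 3 or mutant N2B27 replicate 3. In N2B27, 4 of the 8 were called higher in mutant than in control cells, against 4.1% of all genes. They were Zfp42 (1.78), Dppa5a (1.35), Esrrb (1.30) and Pou5f1 (0.48), and the list median was 0.81. Zfp42 lies on chromosome 8, where the median genotype difference of 955 genes in N2B27 was 0.17. Over the N2B27 arrays the list mean ran from -1.30 to -0.90 in control and from -0.52 to -0.26 in mutant cells. In a fit of the compared groups alone 2 of the 8 were called, and the part of this marker difference in the N2B27 genotype differences below was not tested.

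The mature sequences of the miR-200 family are shown because these microRNAs are the best known brake on Zeb1 and Zeb2 and fall into 2 groups by their seed, the bases 2 to 8 given in capitals. Those of the first pair share the seed AACACUG and those of the second pair AAUACUG. The sequences are from RefSeq (GRCm38.p6). miR-200a and miR-200b lie on chromosome 4 and miR-141 and miR-200c on chromosome 6, all on the minus strand.
miR-141-3p: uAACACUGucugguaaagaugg
miR-200a-3p: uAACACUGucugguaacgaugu
miR-200b-3p: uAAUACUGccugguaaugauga
miR-200c-3p: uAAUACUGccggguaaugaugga

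SNAI, ZEB and TWIST-class factors bind E-boxes, and the hexamer CACCTG, read as CAGGTG on the other strand, is the form bound by the SNAI and ZEB zinc fingers. Promoter windows of RefSeq (GRCm38.p6), reaching from 250 bases before to 50 bases after a transcript start, were found for 4 of the 9 genes, namely Epcam, Snai1, Twist1 and Zeb2. On either strand the hexamer stood in 20.2% of all 32851 windows, and 2.88% held 2 or more. Epcam held 2 and Snai1 held 1, while the windows of Twist1 and Zeb2 held none. The 250 bases before the start of these 2 genes are given 5′ to 3′ with the hexamer in capitals, because Epcam and Snai1 are the members that carry it. Epcam lies on chromosome 17, plus strand, at chr17:87635729-87635978, with hexamers starting 187 and 19 bases before the start. Snai1 lies on chromosome 2, plus strand, at chr2:167537945-167538194, with its hexamer starting 126 bases before the start. A match describes the letters of the window, and binding was not measured.
Epcam: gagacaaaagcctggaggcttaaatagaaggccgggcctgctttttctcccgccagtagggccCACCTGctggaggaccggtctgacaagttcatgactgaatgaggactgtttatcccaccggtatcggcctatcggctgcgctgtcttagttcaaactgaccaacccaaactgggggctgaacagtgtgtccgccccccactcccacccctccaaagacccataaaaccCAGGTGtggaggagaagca
Snai1: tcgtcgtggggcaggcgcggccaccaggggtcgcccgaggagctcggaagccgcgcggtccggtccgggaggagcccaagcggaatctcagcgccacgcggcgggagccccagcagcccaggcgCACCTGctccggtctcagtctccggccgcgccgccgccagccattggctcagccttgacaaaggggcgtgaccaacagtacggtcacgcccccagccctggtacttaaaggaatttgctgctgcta

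Between the genotypes in ESC medium, Zeb1 was the 1 member called, and it was higher in the mutant. Of all genes, 3.09% were called higher and 3.05% lower in that comparison. In N2B27, Cdh1 and Twist1 were called higher in the mutant and Epcam lower, against 4.1% of all genes higher and 1.64% lower. From ESC medium to N2B27, control cells gave 3 members higher (Epcam, Zeb2, Twist1) and 2 lower (Fn1, Zeb1), against 12.8% and 13.3% of all genes. Mutant cells gave 5 higher (Cdh1, Cdh2, Epcam, Zeb2, Twist1) and 1 lower (Zeb1), against 14.9% and 10.3%. The interaction (the difference between genotypes in N2B27 less the same difference in ESC medium) gave no called member by limma, and 4 of the 9 had an unadjusted p under 0.05; over all genes 2.12% were called. The median difference of the 9 genes was -0.23, 0.08, 0.12 and 0.33 in these 4 comparisons in turn, where the median of all genes lay between -0.01 and 0.02.

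**Figure D1:**
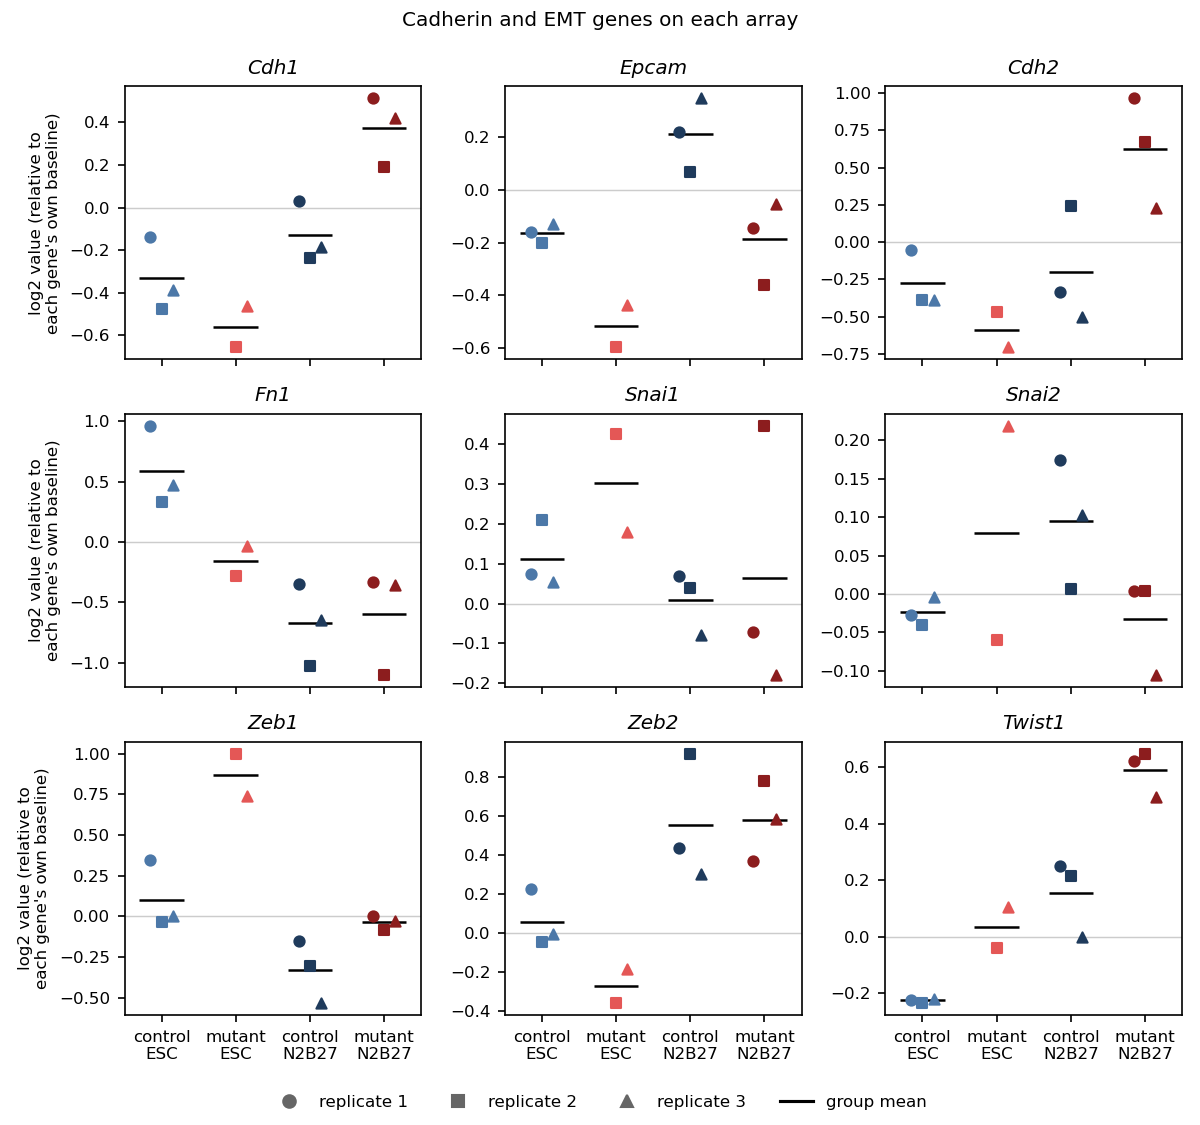
Value of each of the 9 genes on the 11 arrays, on a log2 scale relative to the baseline of each gene (y axis, scaled for each gene), by group (x axis); symbols mark the replicate number and bars the group mean. Cdh1 and Twist1 lie highest in the mutant N2B27 arrays, Zeb1 highest in the mutant ESC arrays and Fn1 highest in the control ESC arrays.

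Cdh1, on chromosome 8, was the member with the clearest rise in mutant cells. It read -0.14, -0.48 and -0.39 in control ESCs and -0.66 and -0.46 in mutant ESCs. After N2B27 the values were 0.03, -0.24 and -0.19 in control cells and 0.51, 0.19 and 0.42 in mutant cells. All 3 mutant N2B27 arrays lay above all other arrays, while the ranges of the other 3 groups overlapped with their neighbours in the order of means: -0.56 ± 0.13 (SD, n = 2) in mutant ESCs, -0.33 ± 0.18 (SD, n = 3) in control ESCs, -0.13 ± 0.14 (SD, n = 3) in control N2B27 and 0.37 ± 0.17 (SD, n = 3) in mutant N2B27.

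The rise of Cdh1 from ESC medium to N2B27 in mutant cells was 0.93 ± 0.13 (SE, 1.91-fold, adjusted p = 0.000612) and was called under every alternative run. In control cells it was 0.20 ± 0.12 (SE, adjusted p = 0.265), and with the replicate number as a block the adjusted p was 0.0398. Between the genotypes in N2B27 Cdh1 was 0.50 ± 0.12 (SE) higher in the mutant (1.42-fold, adjusted p = 0.0346). This call was lost without control N2B27 replicate 2 (adjusted p = 0.118) or 3 (0.125), without mutant N2B27 replicate 1 (0.087) or 3 (0.0813), and in a fit of the compared groups alone (0.0787). In ESC medium the genotype difference was -0.23 ± 0.13 (SE, adjusted p = 0.44). The interaction for Cdh1 was 0.73 ± 0.17 (SE), with an adjusted p of 0.0662. It was called with the replicate number as a block (0.65, adjusted p = 0.0118), with array weights (0.73, adjusted p = 0.00724) and without mutant N2B27 replicate 2 (0.82, adjusted p = 0.0318). In the other 14 of the 17 alternatives it was not called, and the adjusted p by limma reached 0.285.

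Genes of chromosome 8 as a whole read higher in the mutant arrays. The median genotype difference of the 955 measured genes on chromosome 8 was 0.17 in N2B27 and 0.12 in ESC medium, against medians near 0 (-0.0047 and -0.02) on the other autosomes. In N2B27, 16% of the genes on that chromosome differed by as much as Cdh1 or more. With each array centred on chromosome 8 genes, an alternative chosen after seeing the data, Cdh1 was 0.41 higher in mutant N2B27 cells (adjusted p = 0.0776), and the rise from ESC medium to N2B27 in mutant cells was 0.91 (adjusted p = 0.00145). The part of this shift in the Cdh1 difference was not otherwise tested.

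Epcam, on chromosome 17, encodes a cell surface protein of epithelia and ESCs that supports adhesion between cells. It read -0.16, -0.20 and -0.13 in control ESCs and -0.59 and -0.43 in mutant ESCs. In N2B27 it read 0.22, 0.07 and 0.34 in control cells and -0.15, -0.36 and -0.05 in mutant cells. The mutant arrays lay below the control arrays of the same medium throughout, and the ranges of mutant N2B27 and control ESCs, next to each other in the order of means, overlapped.

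The genotype difference of Epcam in N2B27 was -0.40 ± 0.09 (SE, adjusted p = 0.0391), opposite in sign to that of Cdh1. It missed the threshold without control N2B27 replicate 1 (adjusted p = 0.0943) or 3 (0.145) or mutant N2B27 replicate 1 (0.0639) or 2 (0.0704), in a fit of the compared groups alone (0.128), with arrays centred on their medians (0.053) and without the genes of chromosomes 8, X and Y (0.0513). In ESC medium the difference was -0.35 ± 0.11 (SE, adjusted p = 0.0887). From ESC medium to N2B27 Epcam rose by 0.37 ± 0.09 (SE) in control cells (adjusted p = 0.0146), which was not called without control ESC replicate 2 (0.052) or control N2B27 replicate 3 (0.0601). The rise of 0.33 ± 0.11 (SE) in mutant cells (adjusted p = 0.0439) was not called without mutant ESC replicate 2 (0.295) or 3 (0.0708) or mutant N2B27 replicate 1 (0.095) or 3 (0.134), in a fit of the compared groups alone (0.123) and with arrays centred on their medians (0.0617). The interaction was -0.05 ± 0.14 (SE, adjusted p = 0.946), with a 95% interval from -0.36 to 0.27.

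Cdh2, on chromosome 18, rose in mutant cells together with Cdh1. It read -0.06, -0.39 and -0.39 in control ESCs and -0.47 and -0.70 in mutant ESCs. In N2B27 the values were -0.33, 0.24 and -0.50 in control cells and 0.96, 0.67 and 0.23 in mutant cells. Mutant replicate 3 in N2B27, at 0.23, lay just below control replicate 2, at 0.24, so those groups touch, while mutant N2B27 lay clear of both ESC groups.

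The rise of Cdh2 from ESC medium to N2B27 in mutant cells was 1.21 ± 0.24 (SE, 2.31-fold, adjusted p = 0.00467), called under every alternative run. In control cells the difference was 0.08 ± 0.22 (SE, adjusted p = 0.872), with a 95% interval from -0.41 to 0.56. Between the genotypes in N2B27 it was 0.82 ± 0.22 (SE, adjusted p = 0.0576), just short of a call. It was called with the replicate number as a block (adjusted p = 0.0433), without control N2B27 replicate 2 (1.04, adjusted p = 0.0273) and without mutant N2B27 replicate 3 (1.02, adjusted p = 0.0291). In the other 10 of the 13 alternatives it was not called. Over all 13 the difference ran from 0.51 to 1.04, and the adjusted p by limma reached 0.196. In ESC medium the genotype difference was -0.31 ± 0.24 (SE, adjusted p = 0.623), and the interaction was 1.13 ± 0.33 (SE, adjusted p = 0.126).

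No exchange of the 2 cadherins was measured in these arrays: both rose with the medium in mutant cells. The difference Cdh2 minus Cdh1, read only for its changes, was 0.08, 0.09 and -0.0009 in control ESCs, 0.19 and -0.24 in mutant ESCs, -0.37, 0.48 and -0.32 in control N2B27 and 0.45, 0.48 and -0.19 in mutant N2B27. The group means were 0.06 ± 0.05 (SD, n = 3), -0.03 ± 0.30 (SD, n = 2), -0.07 ± 0.47 (SD, n = 3) and 0.25 ± 0.38 (SD, n = 3), so with all arrays every change between groups (-0.12 to 0.32) was smaller than the SD of either N2B27 group. The change with genotype in N2B27 (0.32) ran from 0.17 without control N2B27 replicate 1 to 0.59 without control N2B27 replicate 2, and was 0.53 without mutant N2B27 replicate 3. The change with medium in mutant cells (0.28) was 0.06 without mutant ESC replicate 3, 0.49 without mutant ESC replicate 2 and 0.49 without mutant N2B27 replicate 3. The changes with genotype in ESC medium (-0.08) and with medium in control cells (-0.12) turned sign without mutant ESC replicate 3 (0.13) and without control N2B27 replicate 1 (0.03). Over the 11 arrays, which fall into 4 groups and share them, the correlation of Cdh1 with Cdh2 was 0.81, given as a description.

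**Figure D2:**
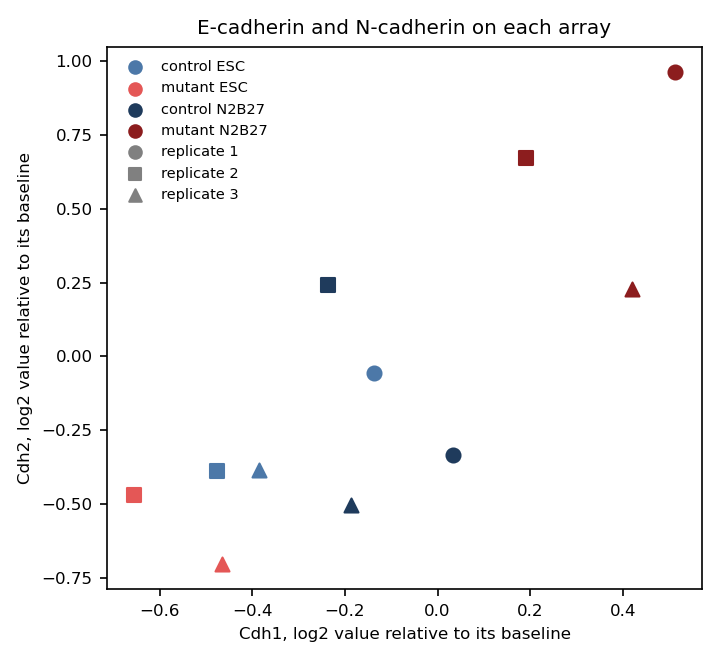
Cdh2 (y axis) against Cdh1 (x axis) on each of the 11 arrays, both as log2 values relative to the baseline of the gene; colours mark the groups and symbols the replicate numbers. The 3 mutant N2B27 arrays are at 0.19 to 0.51 for Cdh1 and 0.23 to 0.96 for Cdh2, to the upper right of the others except that 1 control N2B27 array reaches 0.24 for Cdh2.

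The genes whose values ran most like those of Cdh1 over the 11 arrays were Anks1b (Pearson r = 0.961), the receptor gene Npr2 (0.960), Mir341 (0.954), Itgb1 (0.952), which encodes a chain of the fibronectin receptor and like Cdh1 lies on chromosome 8, and Golgb1 (0.952). Among the other members, Twist1 (0.814) ran closest to Cdh1 and Fn1 (-0.32), Zeb1 (-0.46) and Snai1 (-0.49) ran against it. For Cdh2 the closest were Cyyr1 (0.945), Klhl4 (0.942), Gpr85 (0.917), Pamr1 (0.912) and Lfng (0.907), a modifier of Notch. These likenesses are descriptions, since the arrays of a group share their condition and the genes were ranked on the same values.

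Fn1, on chromosome 1, encodes fibronectin, the matrix protein that integrins bind and that mesenchymal cells lay down. It read 0.96, 0.33 and 0.48 in control ESCs and -0.28 and -0.03 in mutant ESCs. After N2B27 the values were -0.35, -1.03 and -0.65 in control cells and -0.33, -1.10 and -0.35 in mutant cells. Control ESCs lay above every other array and replicate 2 was the lowest in both N2B27 groups, whose ranges overlapped.

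The fall of Fn1 from ESC medium to N2B27 in control cells was the largest difference of any member, at -1.26 ± 0.24 (SE, 2.40-fold lower, adjusted p = 0.00382), and was called under every alternative run. In mutant cells it was -0.44 ± 0.27 (SE, adjusted p = 0.308), starting from a lower mean in ESC medium, -0.15 ± 0.17 (SD, n = 2) against 0.59 ± 0.33 (SD, n = 3). The genotype difference of -0.74 ± 0.27 (SE) in ESC medium missed the threshold (adjusted p = 0.17) although the groups did not overlap. In N2B27 it was 0.08 ± 0.24 (SE, adjusted p = 0.933), and the interaction of 0.82 ± 0.36 (SE) had an adjusted p of 0.357.

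Markers of fibroblasts and feeder cells, which also make fibronectin, were read beside Fn1. Of the 10 measured, 4 were called lower in mutant than in control ESCs and none higher, against 3.05% and 3.09% of all genes. These 4 were Tagln (-2.23), Acta2 (-1.88), Col1a1 (-1.32 ± 0.20, SE, adjusted p = 0.00417) and Col1a2 (-0.73). The other 6 lay between -0.08 and 0.08, and the list median was -0.05. The mean of the list over an array was drawn down by those 4. It ran from 0.03 to 0.15 in control ESCs and from -0.57 to -0.50 in mutant ESCs, where Fn1 was lower too. The count of lower markers was 2 without control ESC replicate 3 or mutant ESC replicate 3, and 1 without mutant ESC replicate 2. Between the media the list mean of control cells was higher in N2B27, where Fn1 was lower. In N2B27 the list mean ran from 0.17 to 0.54 in control and from -0.02 to 0.31 in mutant cells. In control N2B27 cells 3 of the 10 were called higher and 1 lower than in control ESCs, against 12.8% and 13.3% of all genes. The 1 lower was Col1a1 (-1.35 ± 0.18, SE, adjusted p = 0.000477). Which of these markers are absent cannot be read from centred values, fewer cells of a type cannot be told apart from less RNA per cell in these bulk samples, and the part of such cells in the Fn1 differences was not tested.

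Snai1 and Snai2 encode the zinc finger repressors Snail and Slug. Snai1, on chromosome 2, read 0.08, 0.21 and 0.05 in control ESCs, 0.43 and 0.18 in mutant ESCs, 0.07, 0.04 and -0.08 in control N2B27 and -0.07, 0.45 and -0.18 in mutant N2B27. The groups overlapped in every comparison, and the mutant N2B27 mean (0.06 ± 0.33, SD, n = 3) rests on replicate 2 alone. No difference of Snai1 was called; they ran from -0.24 ± 0.16 (SE, adjusted p = 0.358) with medium in mutant cells to 0.19 ± 0.16 (SE, adjusted p = 0.665) between genotypes in ESC medium. Without mutant N2B27 replicate 2 the medium difference in mutant cells was -0.43 and called (adjusted p = 0.00919).

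Snai2, on chromosome 16, read -0.03, -0.04 and -0.0034 in control ESCs and -0.06 and 0.22 in mutant ESCs. In N2B27 it read 0.17, 0.0069 and 0.10 in control cells and 0.0036, 0.0033 and -0.11 in mutant cells. No difference was called, the largest being -0.13 ± 0.08 (SE, adjusted p = 0.447) between genotypes in N2B27, with a 95% interval from -0.30 to 0.05.

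Zeb1, on chromosome 18, and Zeb2, on chromosome 2, encode related zinc finger and homeodomain repressors, and in these arrays they moved in opposite directions with the medium. Zeb1 read 0.34, -0.03 and 0.00 in control ESCs and 1.00 and 0.74 in mutant ESCs. In N2B27 the values were -0.15, -0.30 and -0.53 in control cells and 0.00, -0.08 and -0.03 in mutant cells. Both mutant ESC arrays lay above every other array, and the mutant arrays lay above the control arrays in N2B27 too.

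The genotype difference of Zeb1 in ESC medium was 0.77 ± 0.14 (SE, 1.70-fold, adjusted p = 0.00986). Without mutant ESC replicate 2 it was 0.64 and no longer called (adjusted p = 0.126). In N2B27 it was 0.29 ± 0.12 (SE, adjusted p = 0.222). From ESC medium to N2B27 Zeb1 fell by 0.90 on the log2 scale in mutant cells (SE 0.14, adjusted p = 0.000971), a call kept under every alternative run. In control cells it fell by 0.43 (SE 0.12, adjusted p = 0.0261), and was not called without control ESC replicate 1 (adjusted p = 0.0886), without control N2B27 replicate 2 (0.0586) or 3 (0.0995), and in a fit of the compared groups alone (0.0516). The interaction was -0.47 ± 0.18 (SE, adjusted p = 0.269).

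Zeb2 read 0.22, -0.05 and -0.0093 in control ESCs and -0.36 and -0.18 in mutant ESCs. After N2B27 the values were 0.43, 0.92 and 0.30 in control cells and 0.37, 0.77 and 0.58 in mutant cells. Both N2B27 groups lay above both ESC groups, and the genotypes overlapped in N2B27. The rise in mutant cells was 0.85 ± 0.18 (SE, 1.80-fold, adjusted p = 0.00592), and was not called without mutant ESC replicate 2 (adjusted p = 0.0655). In control cells the rise was 0.50 ± 0.16 (SE, adjusted p = 0.0436), but 0.0801 with the replicate number as a block. It was also lost without control ESC replicate 2 (0.133) or 3 (0.116), without control N2B27 replicate 1 (0.0628) or 2 (0.13), and in a fit of the compared groups alone (0.0649). The genotype difference of Zeb2 was -0.33 ± 0.18 (SE, adjusted p = 0.408) before and 0.03 ± 0.16 (SE, adjusted p = 0.968) after N2B27.

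Twist1, on chromosome 12, encodes a basic helix-loop-helix factor of mesoderm and neural crest. It read -0.22, -0.23 and -0.22 in control ESCs and -0.04 and 0.11 in mutant ESCs. In N2B27 it read 0.25, 0.21 and 0.00 in control cells and 0.62, 0.65 and 0.50 in mutant cells. The means rose in the order control ESCs (-0.22), mutant ESCs (0.03), control N2B27 (0.15) and mutant N2B27 (0.59), and of neighbours in that order the middle 2 groups overlapped.

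Twist1 was 0.43 ± 0.08 (SE) higher in mutant than in control N2B27 cells (1.35-fold, adjusted p = 0.0117), a call lost in a fit of the compared groups alone (adjusted p = 0.0663) and kept on leaving out each array of those groups in turn. It rose with the medium in control cells by 0.38 ± 0.08 (SE, adjusted p = 0.00512) and in mutant cells by 0.56 ± 0.09 (SE, adjusted p = 0.00114), both called under every alternative run. In ESC medium the genotype difference was 0.26 ± 0.09 (SE, adjusted p = 0.129), and the interaction was 0.18 ± 0.12 (SE, adjusted p = 0.596).

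**Figure D3:**
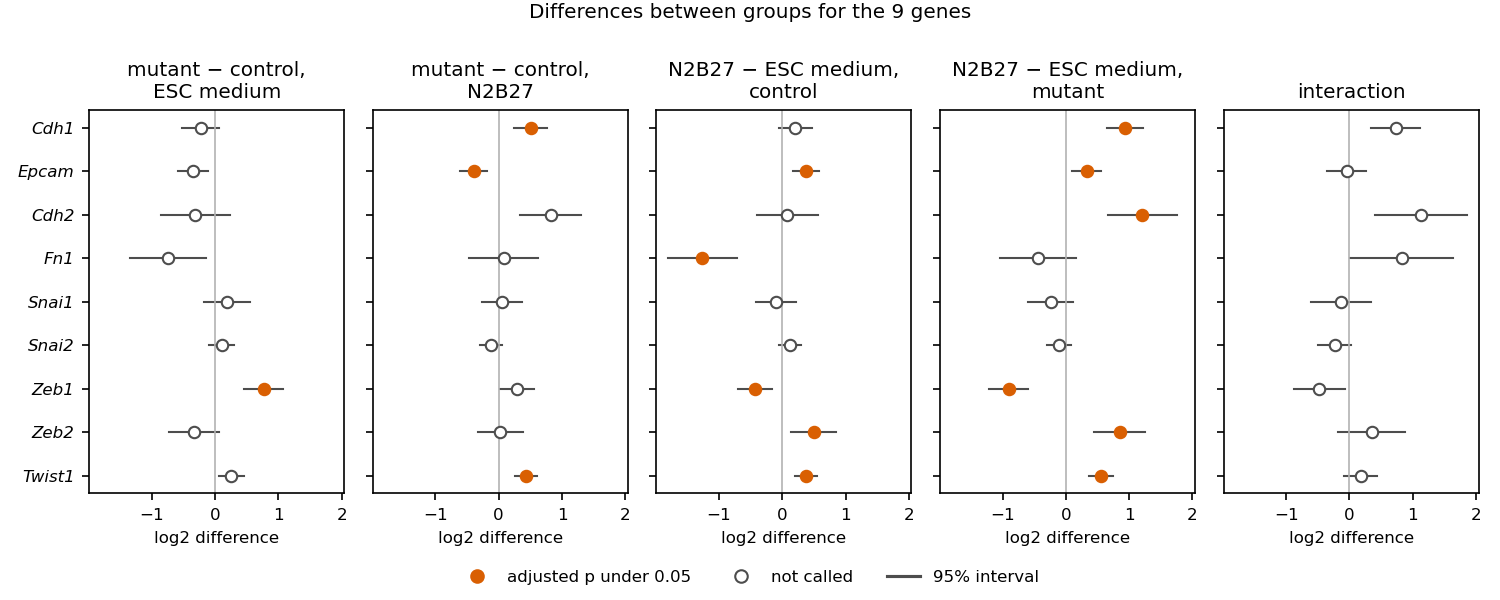
Difference of each of the 9 genes (rows) in the 4 pairwise comparisons and the interaction (panels) on the log2 scale (x axis), with 95% intervals; filled points had an adjusted p under 0.05. Zeb1 alone is filled between genotypes in ESC medium, 3 genes in N2B27, 5 genes with medium in control and 6 with medium in mutant cells, and none for the interaction.

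Of the 5 miR-200 genes, 4 had a cluster with 1 symbol. The labelling kit is made for long transcripts, so these values are not taken as levels of mature microRNA. Mir200a, of the first seed group, was called higher in N2B27 than in ESC medium in control cells (0.42 ± 0.13, SE, adjusted p = 0.0391). It read -0.23, -0.42 and -0.19 in control ESCs and 0.38, -0.02 and 0.05 in control N2B27. The call was lost on leaving out any 1 of 5 of the 6 arrays compared, control N2B27 replicate 2 being the exception, and the adjusted p reached 0.138. No other comparison of Mir200a, Mir200b, Mir200c or Mir141 was called by limma, and none of the 4 genes had an unadjusted p under 0.05 between the genotypes. In mutant cells, where Zeb1 fell the most, their differences with medium ran from 0.07 (Mir141) to 0.27 (Mir200a).

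Other epithelial genes, a list of 40 measured genes of junctions, polarity and epithelial identity, gave most calls with the medium in mutant cells. Of all genes, 3.09% were called higher and 3.05% lower in mutant than in control ESCs, and 4.1% and 1.64% in N2B27. The same shares stand beside the genotype counts of the lists below. In ESC medium 13 were called lower in the mutant and 1 higher, with a median of -0.51. The lowest were the keratins Krt18 (-2.12 ± 0.25, SE, adjusted p = 0.00126) and Krt8 (-1.85 ± 0.11, SE, adjusted p = 2.52e-05) and the tight junction gene Cldn6 (-1.79 ± 0.22, SE, adjusted p = 0.00149). The count of lower genes was 6 without mutant ESC replicate 2. In N2B27, 6 were called higher and 2 lower, with a median of -0.0078, and the factor Elf3 was 0.86 ± 0.07 (SE) higher in the mutant (adjusted p = 0.0004). Of the 6, Esrp2 (0.70) and Pard3 (0.41, named after its value was seen) lie on chromosome 8, whose genes read higher in the mutant. The 2 lower calls were lost without control N2B27 replicate 1 or 3, and 1 was left without mutant N2B27 replicate 1 or 2.

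With the medium, 17 of the 40 epithelial genes rose and 7 fell in control cells (median 0.29), and 28 rose and 1 fell in mutant cells (median 0.85). Of all genes, 12.8% rose and 13.3% fell in control cells, and 14.9% and 10.3% in mutant cells. Cldn3 (1.75 ± 0.21, SE, adjusted p = 0.000267) and the polarity gene Crb3 (1.63 ± 0.21, SE, adjusted p = 0.000392) led in control cells, followed by P-cadherin, Cdh3 (1.42 ± 0.27, SE, adjusted p = 0.00374). Cldn7 (2.48 ± 0.28, SE, adjusted p = 0.00018) and Cldn6 (2.32 ± 0.22, SE, adjusted p = 7.43e-05) led in mutant cells. The rises in control cells numbered 11 without control ESC replicate 1, 10 without control N2B27 replicate 1 and 11 without control N2B27 replicate 3. In the interaction 8 were called, all above 0, and 3 to 12 on leaving out 1 array, the fewest without mutant ESC replicate 2. Over all genes 2.12% were called in the interaction, 312 above and 110 below 0.

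The mesenchymal list had a median of the same sign as the epithelial list in every pairwise comparison except that of genotypes in N2B27. There the medians were -0.0078 (epithelial) and 0.0359 (mesenchymal). Its calls went in a single direction between the genotypes in ESC medium and with the medium in mutant cells. In the remaining pairwise comparisons they went both ways. Of 30 measured, 11 were called lower in mutant than in control ESCs and none higher, with a median of -0.31; the count was 5 without mutant ESC replicate 2 or 3. In N2B27, 1 was called higher and 1 lower (3 and 2 with the replicate number as a block), and the intermediate filament gene Vim was 1.25 ± 0.15 (SE) higher in the mutant (adjusted p = 0.00192). In control cells 6 rose and 4 fell with the medium (median 0.10), against 12.8% and 13.3% of all genes. The gelatinase gene Mmp2 rose by 1.23 ± 0.13 (SE, adjusted p = 0.000162). In mutant cells 15 rose, against 14.9% of all genes, with a list median of 0.43. Among those 15 were the matrix gene Thbs1 (3.02 ± 0.44, SE, adjusted p = 0.000821) and the actin-binding gene Tagln (2.60 ± 0.36, SE, adjusted p = 0.000582). The mean of the list over an array ran from -0.03 to 0.12 in control ESCs, from -0.52 to -0.49 in mutant ESCs and from 0.01 to 0.23 in the N2B27 arrays of both genotypes.

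**Figure D4:**
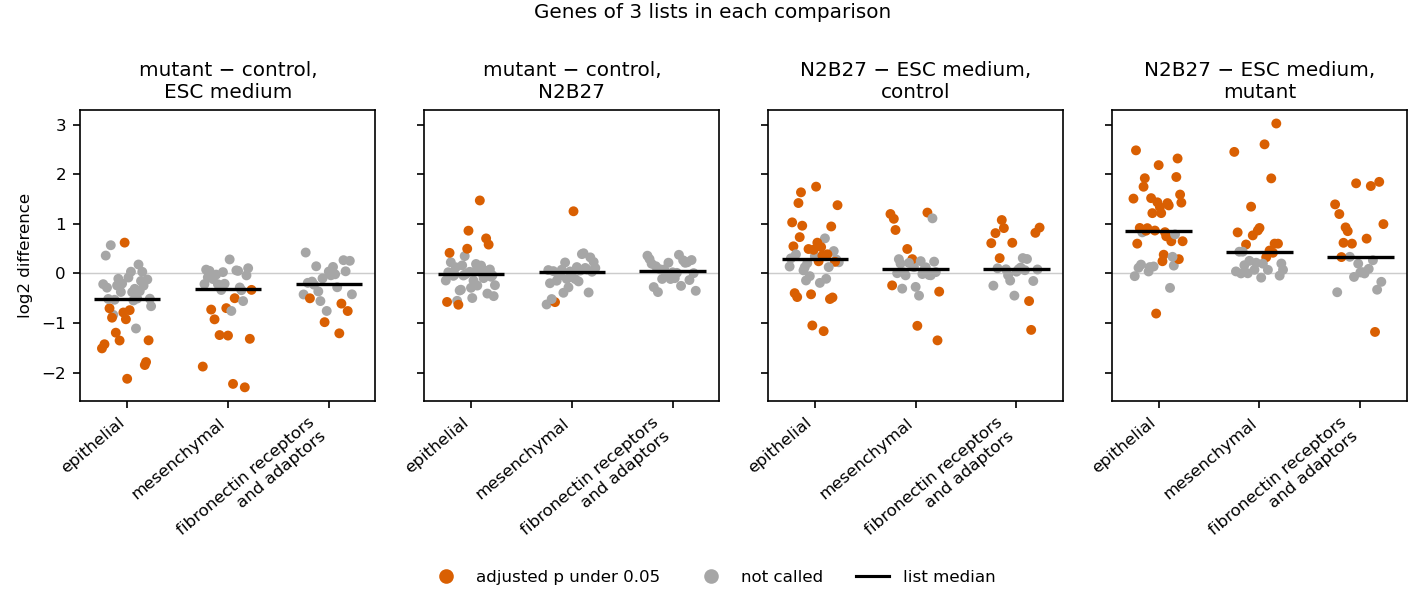
Difference of every measured gene of 3 lists (x axis) on the log2 scale (y axis) in the 4 pairwise comparisons (panels); orange points had an adjusted p under 0.05 and bars are list medians. In mutant against control ESCs the epithelial (-0.51) and mesenchymal (-0.31) medians both lie below 0, and with medium in mutant cells both lie above it (0.85 and 0.43).

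Of 24 measured receptors and adaptors of fibronectin adhesion, more rose than fell with the medium. In control cells, where Fn1 fell, 8 were higher and 2 lower, against 12.8% and 13.3% of all genes. The integrin genes Itgb5 (1.08 ± 0.12, SE, adjusted p = 0.000241) and Itgb7 (-1.14 ± 0.16, SE, adjusted p = 0.00071) were among those called. In mutant cells 12 were higher and 1 lower, against 14.9% and 10.3%. The focal adhesion genes Ilk (1.84 ± 0.18, SE, adjusted p = 7.85e-05), Vcl (1.815 ± 0.17, SE, adjusted p = 8.39e-05) and Zyx (1.76 ± 0.12, SE, adjusted p = 1.53e-05) were in front. In ESC medium 5 were lower in the mutant, led by Zyx (-1.21 ± 0.12, SE, adjusted p = 0.000637); without 1 array the count was 1 (either mutant ESC replicate) or 2 (control ESC replicate 2 or 3). Between the genotypes in N2B27 none was called by limma, and 6 had an unadjusted p under 0.05.

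Of the 21 other cadherins measured, none was called between the genotypes by limma; 1 in ESC medium and 4 in N2B27 had an unadjusted p under 0.05, and with the replicate number as a block 1 was called higher in N2B27. With the medium 4 of the 21 rose in control cells, against 12.8% of all genes, among them Cdh10, a cadherin of the nervous system (0.68 ± 0.12, SE, adjusted p = 0.00253), Cdh6, first known from kidney (0.65 ± 0.11, SE, adjusted p = 0.00214), and Cdh3. In mutant cells 5 rose, against 14.9%, led by Cdh10 (1.17 ± 0.14, SE, adjusted p = 0.000223), and 1 was called without mutant ESC replicate 2 or 3.

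Of 21 other transcription factors known to drive EMT, 1 was higher in mutant than in control ESCs, Klf8 (0.96 ± 0.11, SE, adjusted p = 0.00126), and 3 were lower, among them Sox4 (-1.13 ± 0.17, SE, adjusted p = 0.00382) and Prrx2 (-0.62 ± 0.08, SE, adjusted p = 0.00189). Without control ESC replicate 1 the count of lower factors was 5. In N2B27, Snai3, the remaining SNAI gene, was higher in the mutant (0.46 ± 0.08, SE, adjusted p = 0.00809), and 1 factor was lower (none with the replicate number as a block, or without control N2B27 replicate 2 or 3). Snai3 lies on chromosome 8, where 242 of 955 genes were called higher in mutant N2B27 cells. The part of that shift in the Snai3 difference was not tested. With the medium, where 12.8% of all genes rose and 13.3% fell in control cells and 14.9% and 10.3% in mutant cells, 5 of the 21 rose and 2 fell in control cells and 8 rose and 1 fell in mutant cells; with the replicate number as a block 8 rose in control cells. Klf8 fell in both (-0.80 ± 0.10 and -1.42 ± 0.11, SE, adjusted p = 0.00039 and 2.97e-05), as Zeb1 did, while Sox4 (0.85 ± 0.15 and 1.83 ± 0.17, SE, adjusted p = 0.00232 and 6.45e-05) and Tead2 (1.00 ± 0.09 and 1.33 ± 0.11, SE, adjusted p = 8.57e-05 and 2.9e-05) rose in both.

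Among 21 genes of pathways that induce EMT, the ligand gene Tgfb2 (-1.24 ± 0.14, SE, adjusted p = 0.000892) and the receptor gene Egfr (-1.10 ± 0.12, SE, adjusted p = 0.000892) were 2 of 3 called lower in mutant ESCs. In N2B27 the ligand gene Tgfb1 was higher in the mutant (0.42 ± 0.07, SE, adjusted p = 0.0101) and the co-receptor gene Tgfbr3 lower (-0.90 ± 0.13, SE, adjusted p = 0.00471). With the medium 6 rose and 5 fell in control cells, against 12.8% and 13.3% of all genes. There the inhibitor Smad7 (-2.10 ± 0.32, SE, adjusted p = 0.00108) and the ligand Nodal (-2.01 ± 0.41, SE, adjusted p = 0.00532) fell and the signal transducer Smad3 rose (1.35 ± 0.11, SE, adjusted p = 5.03e-05). In mutant cells 10 rose and 1 fell, against 14.9% and 10.3%. A list of 21 measured genes held corepressor partners of the SNAI and ZEB proteins. It also held Gsk3b, Csnk1a1, Fbxw7, Btrc and Pkd1, which do not encode corepressors. None of the 21 was called between the genotypes in ESC medium (2 had an unadjusted p under 0.05), and 1 was called in N2B27. With the medium 4 rose and 5 fell in control cells (12.8% and 13.3% of all genes), and 4 rose and 3 fell in mutant cells (14.9% and 10.3%). The N2B27 call was lost without any 1 of the arrays compared except mutant N2B27 replicate 3. In control cells 3 fell without control ESC replicate 1 or 3 or control N2B27 replicate 1 or 3, and in mutant cells 2 rose without mutant ESC replicate 3.

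Markers of other cell types that ESC cultures can hold were counted beside the shares called over all genes. In mutant against control cells these shares were 3.09% higher and 3.05% lower in ESC medium and 4.1% and 1.64% in N2B27. With the medium they were 12.8% higher and 13.3% lower in control cells and 14.9% and 10.3% in mutant cells. Of 15 endoderm markers, 3 were lower in mutant than in control ESCs, as the keratins were: Lamb1, a laminin chain (-1.15 ± 0.18, SE, adjusted p = 0.00451), and the collagen genes Col4a2 (-0.65 ± 0.10, SE, adjusted p = 0.00472) and Col4a1 (-0.47 ± 0.11, SE, adjusted p = 0.0353). The count was 1 without either mutant ESC array and 2 without control ESC replicate 1 or 3. The other 12 endoderm markers lay between -0.35 and 0.16 in that comparison, and the list median was -0.0005. The mean of the endoderm list ran from -0.08 to 0.02 over the control ESC arrays and from -0.20 to -0.18 over the mutant ESC arrays, and its part in the epithelial differences was not tested. With the medium 4 endoderm markers rose in mutant cells (2 without either mutant ESC array) and 1 in control cells, and in N2B27 1 was lower in the mutant. Of 11 markers of neural progenitors, 2 rose in control cells, 2 rose and 1 fell in mutant cells, and 1 was higher in the mutant in each medium. Of 8 neural crest markers, 2 rose and 1 fell in control cells, 2 rose and 2 fell in mutant cells, and 1 was lower in mutant ESCs. Of 10 markers of the primitive streak and mesoderm, 2 rose in mutant cells (0 to 1 on leaving out 1 array), and no other pairwise comparison gave a call by limma, with 0 to 2 at an unadjusted p under 0.05. Of 7 trophoblast markers, 2 fell in control cells, 1 rose and 2 fell in mutant cells, and 1 was higher in mutant than in control N2B27 cells.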

How the data were processed

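Total RNA was hybridised to 1-colour Affymetrix arrays, and 11 arrays in 4 groups were used. The deposited log2 values came from the authors' use of RMA, which subtracts background, equalises array distributions and combines probes. The submitters' processing notes also list Affymetrix Expression Console 1.2. Base 2 is assumed because RMA usually writes it. The table had been centred for each cluster on an unstated baseline (55.8% of the 28815 clusters have an array at exactly 0), so brightness, and with it any filter on dim genes, is lost. Precision is limited by the few arrays.

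Of the clusters, 21780 carry 1 symbol in the annotation, 1605 more than one and 5430 no symbol. Only the first kind was used, and 21689 of them matched RefSeq (GRCm38.p6) by Entrez identifier. Clusters of a symbol were averaged, leaving 19935 genes. Group means were fitted jointly with limma 3.58.1 in R 4.3.3 (7 residual degrees of freedom, prior 3.02), and two-sided p-values were adjusted by Benjamini-Hochberg over all genes. The procedure was tested on simulated data.

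The 9 genes, the 8 gene lists, the 7 marker lists and the rule for named genes (up to 4 called genes with the largest differences per list and comparison, or the 2 largest differences where none was called) were chosen with earlier results of these data known. The main SE and p-values come from group means alone, without pairing of array numbers. All 3 same-numbered pairs deviated together between genotypes in N2B27 (correlations 0.158 to 0.43) and between media in control cells (0.131 to 0.181). The number entered as a block only in an alternative fit, which was run for every comparison. The alternatives were leaving out each array, centring arrays on their medians, array weights, a test without genes of chromosomes 8, X and Y, each cluster by itself, a robust prior, the compared groups alone and the replicate block. A mutant ESC array numbered 1 was not analysed here, nor was Mir429, whose cluster carries several symbols.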

Additional observations from a re-analysis of the deposited data

Results flagged for a closer look

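Of 88 genes named from the lists, 13 had an interaction past the threshold, so that their genotype difference was not the same in both media; all 13 were above 0. These genes were named for large differences in single comparisons, so their share and sign are partly set by that choice. Over all genes 2.12% were called, 312 above and 110 below 0. The values are log2 differences by limma. In Krt8 (2.43), Cldn6 (1.87), Tgfb2 (1.61), Zyx (1.47) and Prrx2 (0.78) the call held under every alternative run. It was lost under at least 1 alternative in Krt19 (2.58), Tagln (2.35), Nes (2.11), Krt18 (1.83), Col1a1 (1.55), Vcl (1.198), Egfr (0.96) and Snai3 (0.71). Krt8, Krt18 and Krt19 encode keratins, Cldn6 a tight junction protein, and Tagln, Vcl and Zyx proteins of actin fibres and focal adhesions. Among the 9 cadherin and EMT genes themselves, Cdh1 (0.73) and Cdh2 (1.13) had positive interactions that were not called. That of Cdh1 was called in 3 of 17 alternatives, among them the replicate number as a block (adjusted p = 0.0118).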

How the results depend on the processing

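For the 9 genes, each pairwise difference was recomputed under 12 or 13 alternatives and each interaction under 17. No called difference of the 9 genes turned sign. With medium in mutant cells the call of Epcam was lost under 7 of 12 alternatives and that of Zeb2 under 1. Snai1 was gained under 2, and the calls of Cdh1, Cdh2, Zeb1 and Twist1 held throughout. On leaving out 1 array at a time, the number of the 9 genes called ran from 0 to 1 between genotypes in ESC medium (1 with all arrays), from 1 to 3 in N2B27 (3), from 3 to 4 with medium in control cells (5) and from 0 to 1 for the interaction (0). With array weights it was 3 in ESC medium, where Epcam (adjusted p = 0.0256) and Twist1 (0.0411) joined Zeb1, and 2 for the interaction, Cdh1 (0.00724) and Fn1 (0.0489). In a fit of the compared groups alone it was 2 in ESC medium, 0 in N2B27 and 3 with medium in control cells. With the replicate block it was 3 in ESC medium, with Epcam (0.0213) and Fn1 (0.00665), and 1 for the interaction, Cdh1 (0.0118). In ESC medium only 2 pairs share a number, with correlations of 0.0365 and 0.284. For medium in mutant cells the 2 such pairs gave 0.215 and 0.266, against at most 0.0489 for other numbers. The deviations of the 2 mutant ESC arrays from their mean mirror each other. The 2 pairs are therefore not independent, and whether these arrays are pairs was not settled. The block changed the calls of Cdh1, Cdh2 and Zeb2 given with the results and, in mutant cells with medium, Epcam (0.0935). Some uncalled differences turned sign on leaving out 1 array: Snai2 in ESC medium (-0.036 to 0.24) and with medium in mutant cells (-0.25 to 0.027), Cdh2 with medium in control cells (-0.14 to 0.23), the Epcam interaction (-0.13 to 0.041, and 0.044 with array weights), and in N2B27 between genotypes Fn1 (-0.10 to 0.33), Zeb2 (-0.10 to 0.21) and Snai1 (-0.14 to 0.18, and -0.12 with array weights). The change of Cdh2 minus Cdh1 ran from -0.30 to 0.13 in ESC medium and from -0.40 to 0.025 with medium in control cells. Over all genes, 615 higher and 609 lower calls in ESC medium became 1381 and 1757 with array weights, 1555 and 2015 with the block and 174 and 130 without mutant ESC replicate 2, with smaller losses without mutant ESC replicate 3 (262 and 263) and control ESC replicates 2 (337 and 316) and 3 (339 and 300). In N2B27, 817 and 327 became 1821 and 1061 with array weights, 321 and 76 with the compared groups alone and 359 and 95 without control N2B27 replicate 3, 448 and 141 without replicate 2 and 507 and 205 without replicate 1 of that group. With medium in mutant cells 2971 and 2047 became 4385 and 3304 with array weights and 1607 and 1113 without mutant ESC replicate 2. For the interaction 312 and 110 became 1246 and 536 with array weights, 487 and 170 with the block and 42 and 17 without mutant ESC replicate 2. It was also reduced without mutant ESC replicate 3 (115 and 47), control ESC replicates 2 (124 and 47) and 3 (137 and 46) and control N2B27 replicates 2 (148 and 51) and 3 (147 and 49). Leaving out genes of chromosomes 8, X and Y, which tests fewer genes, left 268 and 498 in ESC medium and 390 and 221 in N2B27. The cause of the other changes was not tested.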
